A study of Mus musculus with 60 samples.

Results

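Small nucleolar RNA (snoRNA) genes were followed in nascent RNA of mouse embryonic stem cells after knockdown of Esrrb, a nuclear receptor of the pluripotency network. The members were the rows whose RefSeq identifier maps to a symbol starting with Snord or Snora, leaving out Snord112, Snord113 and Snord114, with a mean of at least 0.5 RPKM over 4 libraries. RPKM is the number of reads scaled by the length of the gene and the depth of the library. This gave 103 genes of 105 such rows, 68 of the C/D box class (Snord) and 35 of the H/ACA box class (Snora), among 9654 genes that passed the same minimum. The members were thus chosen by their measured mean RPKM, so the levels below are a description. All cells were of the line E14, which is derived from mouse embryos and kept in the stem cell state with serum and the cytokine LIF. The siEsrrb group was transfected with an siRNA against Esrrb and the siCtrl group with a control siRNA, with 2 libraries each, and both were harvested 72 h later. Cytoplasm and nucleoplasm were removed, and the RNA left on chromatin was sequenced after depletion of ribosomal RNA. The rest of the series, 56 samples of other assays and treatments, was not analysed here.

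C/D box snoRNAs guide the methylation of the ribose in ribosomal and spliceosomal RNAs and work with the methyltransferase fibrillarin. H/ACA box snoRNAs guide the conversion of uridine to pseudouridine and work with the pseudouridine synthase dyskerin. In mammals most of them lie in introns of host genes, many of which encode ribosomal proteins or other parts of the translation machinery, and they are cut out of the spliced intron. Some hosts, such as the Snhg genes and Gas5, make spliced transcripts with no known protein. RNA on chromatin can therefore hold the host's unspliced transcript and the snoRNA within it. Reads on a snoRNA row do not tell this from a snoRNA already cut out.

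The libraries held 22363943 and 61857158 reads in siEsrrb replicates 1 and 2 and 24764879 and 68002338 reads in siCtrl replicates 1 and 2. Nothing in the labels says that the libraries of a group came from separate cultures, so a p-value here reflects library-to-library spread alone, which may be technical. Esrrb had 0.935 and 1.30 scaled RPKM in siEsrrb, against 2.11 and 1.93 in siCtrl, a log2 fold change of -0.65 (SE 0.13, limma adjusted p 0.281). Scaled RPKM here means the deposited RPKM multiplied by 1 factor per library that lines up the typical gene. All 8 embryonic stem cell markers looked at were detected, with summed levels of 104.2 and 93.9 scaled RPKM in siEsrrb and 113.8 and 107.6 in siCtrl. Zfp42 was at 8.75 and 10.2 in siEsrrb against 18.8 and 16.3 in siCtrl, and Nanog at 3.76 and 4.80 against 5.63 and 6.57. Pou5f1 was higher, at 14.4 and 11.2 in siEsrrb against 9.18 and 9.97 in siCtrl. Of the 8 markers, 4 were lower and 1 higher without overlap, where 22.0% of all 9654 tested genes were lower and 21.6% higher. None of the 8 passed a limma adjusted p of 0.05. The part of these marker differences in the snoRNA values was not tested, and in bulk samples fewer cells of a type and less RNA per cell cannot be told apart. The 7 fibroblast markers summed to 0.342 and 0.722 in siEsrrb and 0.212 and 0.543 in siCtrl, and the 5 primitive endoderm markers to between 0.124 and 0.192 in any library.

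The members drew a small share of the reads. Their rows held 0.0480% and 0.0492% of reads in siEsrrb, against 0.0447% and 0.0472% in siCtrl. The exact 95% binomial intervals were 0.0471% to 0.0489% and 0.0486% to 0.0497% in siEsrrb and 0.0438% to 0.0455% and 0.0467% to 0.0477% in siCtrl, and cover counting error only. C/D rows held 0.0293% and 0.0304% in siEsrrb and 0.0268% and 0.0290% in siCtrl. H/ACA rows held 0.0187% and 0.0187% in siEsrrb and 0.0178% and 0.0182% in siCtrl. Both siEsrrb libraries lay above both siCtrl libraries in either class, while the smallest p that an exact permutation test gives with 2 libraries a group is 0.333.

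C/D genes were shorter, with a median length of 68 bases (45 to 221), against 120 bases (54 to 198) for H/ACA genes. Per length, the classes were at similar levels, with a median over genes of 29.8 scaled RPKM for C/D and 25.9 for H/ACA. Of the 103 genes, 11 were above 100 scaled RPKM, 9 of them C/D and 2 H/ACA. The 5 highest genes drew 38.7% of all reads on the members. Because the genes are short, few reads stand behind each, with medians of 66.3 reads per library for C/D genes and 134 for H/ACA genes. There were 12 members, 9 C/D and 3 H/ACA, with fewer than 20 reads per library on average.

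Snord34 (NR_002455), which lies in an intron of the ribosomal protein gene Rpl13a, was the highest of all members. It had 853 and 591 scaled RPKM in siEsrrb, against 727 and 536 in siCtrl, so the replicates of a group differed more than the groups did (log2 fold change 0.18, SE 0.27). Snora74a (NR_002905), in the noncoding host Snhg4, was the highest H/ACA gene, with 350 and 321 in siEsrrb and 372 and 331 in siCtrl. Snord22 (NR_004445) is the mouse U22, which is needed in Xenopus oocytes for maturation of the small-subunit ribosomal RNA. It lies in Snhg1 and had 338 and 308 scaled RPKM in siEsrrb, against 293 and 300 in siCtrl, with both siEsrrb libraries slightly above both controls (log2 fold change 0.12, SE 0.15). Snora61 in Snhg12 had 155 and 150 in siEsrrb and 163 and 155 in siCtrl, and was the only member of the H/ACA class that was lower in siEsrrb without overlap of the groups. Its log2 fold change was -0.06 (SE 0.14), well inside the error. Snord15b in the ribosomal protein gene Rps3 differed more by replicate number than by group, with 126 and 190 scaled RPKM in siEsrrb and 102 and 163 in siCtrl.

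**Figure D1:**
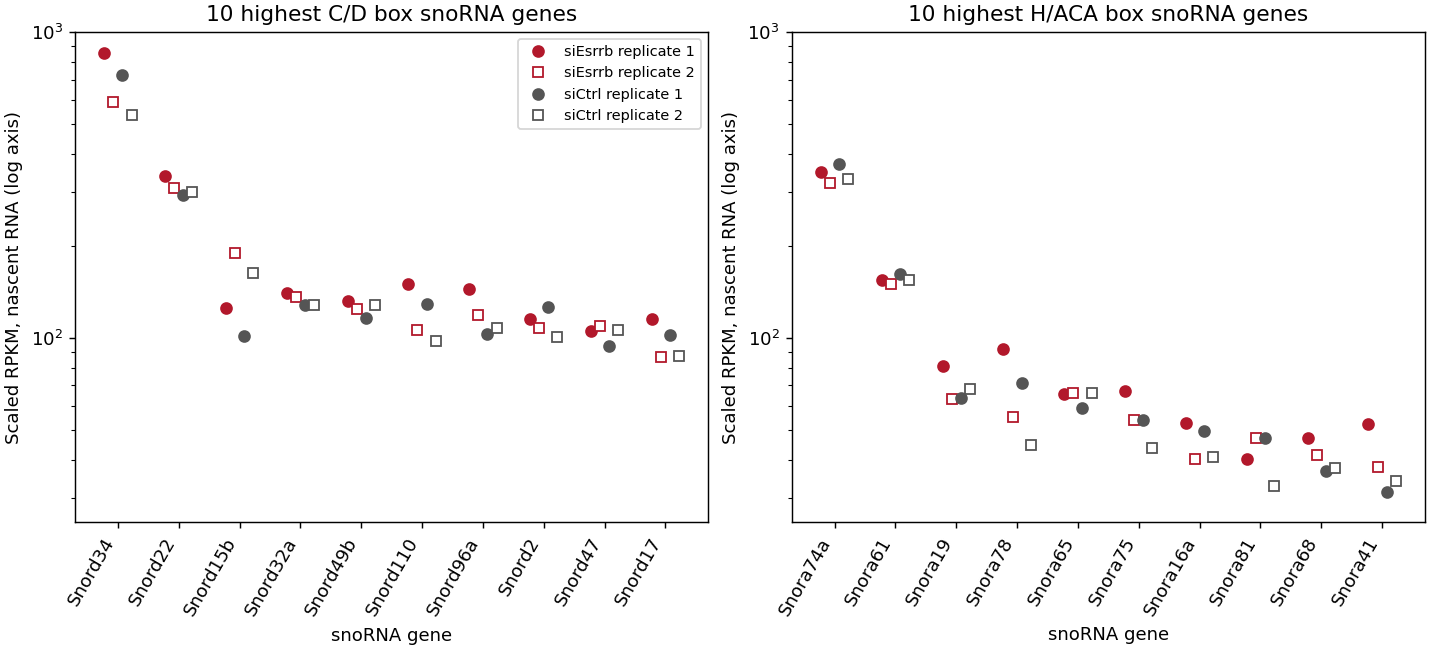
Scaled RPKM (log axis) of the 10 highest C/D box and the 10 highest H/ACA box snoRNA genes in each of the 4 libraries, with siEsrrb in red and siCtrl in grey, circles for replicate 1 and squares for replicate 2. Snord34 reached 853 in siEsrrb replicate 1, Snora74a stayed between 321 and 372, and for Snord34 and Snord15b the symbols of 1 replicate number lie closer together than the symbols of 1 colour.

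The remaining C/D genes among the 10 highest lay between 87.0 and 150 scaled RPKM in every library. Snord32a, also in Rpl13a, had 141 and 137 in siEsrrb, against 128 and 128 in siCtrl, and Snord96a in Rack1 had 145 and 119 against 103 and 108. Both were higher in siEsrrb without overlap (log2 fold changes 0.11, SE 0.14, and 0.32, SE 0.17). The groups overlapped for Snord49b, Snord110, Snord2, Snord47 and Snord17, whose log2 fold changes ran from -0.02 for Snord2 to 0.17 for Snord110. Among the 10 highest H/ACA genes, Snora75, Snora68 and Snora41 were higher in siEsrrb without overlap. Snora41, in the elongation factor gene Eef1b2, had 52.5 and 37.8 scaled RPKM in siEsrrb and 31.5 and 34.2 in siCtrl (log2 fold change 0.44, SE 0.21). Snora75, in the nucleolin gene Ncl, had 67.1 and 54.0 in siEsrrb and 54.0 and 43.7 in siCtrl. Snora19, Snora78, Snora65, Snora16a and Snora81 overlapped between the groups.

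The comparison of siEsrrb with siCtrl asked whether knockdown of Esrrb moved either class. In the limma fit without a block for replicate number, no snoRNA gene passed an adjusted p of 0.05, out of 103, where 0 of all 9654 genes (0.0%) passed. A voom fit of the recovered reads with the replicate number as a block called 7 members, Snord34 and Snord15b among them, and 26.6% of all genes, while limma with that block called 0. No label states that the number pairs the libraries. At an unadjusted p under 0.05 limma gave 2 members, Snora31 and Snora62, where 11.3% of all genes reached it. Among C/D genes, 11 of 68 were higher in both siEsrrb libraries than in both siCtrl libraries, and 6 were lower. Among H/ACA genes, 11 of 35 were higher and 1 was lower. Over all tested genes, 21.6% were higher and 22.0% lower by the same rule. The higher calls thus took 16.2% of C/D genes and 31.4% of H/ACA genes, below and above the background. The lower calls took 8.82% and 2.86%, both below it. Of the 641 other tested genes under 200 bases, 610 of them microRNA genes, 27.9% were higher and 7.80% lower. With at least 20 reads per library on average, 33.5% of these short genes were higher and 6.23% lower. With that minimum, H/ACA genes had 34.4% and 3.13%, and C/D genes 18.6% and 8.47%. The difference between the classes in these shares was not tested.

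The fold changes leaned towards siEsrrb in both classes. The median log2 fold change was 0.11 for C/D genes (25% to 75% of genes, -0.07 to 0.25), with 47 of 68 above 0, and 0.15 for H/ACA genes (0.02 to 0.39), with 27 of 35 above 0. Over all tested genes the median was 0.00 and 49.7% of genes were above 0. For replicate numbers 1 and 2, the C/D median was 0.15 and 0.10, and the H/ACA median 0.28 and 0.14. C/D minus H/ACA came to -0.04 over all 4 libraries, -0.13 in replicate 1 and -0.04 in replicate 2. The SD between the 2 replicate values was 0.06. The value over all 4 libraries was smaller in size than that SD, and the replicate 1 value was larger. The class difference was not tested. Without siEsrrb replicate 1 the C/D median was 0.02, while the H/ACA median was 0.34 without siEsrrb replicate 2 and 0.26 without siCtrl replicate 1. C/D minus H/ACA was -0.21 without siEsrrb replicate 2 and -0.14 without siCtrl replicate 1. Without library scaling the C/D median was 0.06.

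Other short genes had a larger median fold change than either class, which came to 0.12 for C/D and 0.18 for H/ACA among members with at least 20 reads. There were 257 other tested genes under 200 bases with at least 20 reads per library, and 233 of them were microRNA genes. Their median log2 fold change was 0.24, with 196 above 0, and within the replicate numbers the median was 0.26 and 0.21. Gene length and RNA class cannot be told apart in this set. The part of gene length in the members' shift was not tested. The 9 scaRNA genes, which guide the same modifications in Cajal bodies, had a median of 0.27, with 8 above 0. Scarna2, the highest of them, had 1400 and 1011 scaled RPKM in siEsrrb, against 1118 and 872 in siCtrl, and its groups overlapped. Scarna17 had 30.6 and 33.1 in siEsrrb against 23.2 and 27.2 in siCtrl, and Scarna8 had 3.71 and 3.90 against 3.23 and 2.54. These 2 of 9 were the scaRNA genes higher without overlap, close to the 21.6% of all tested genes, and none was lower.

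**Figure D2:**
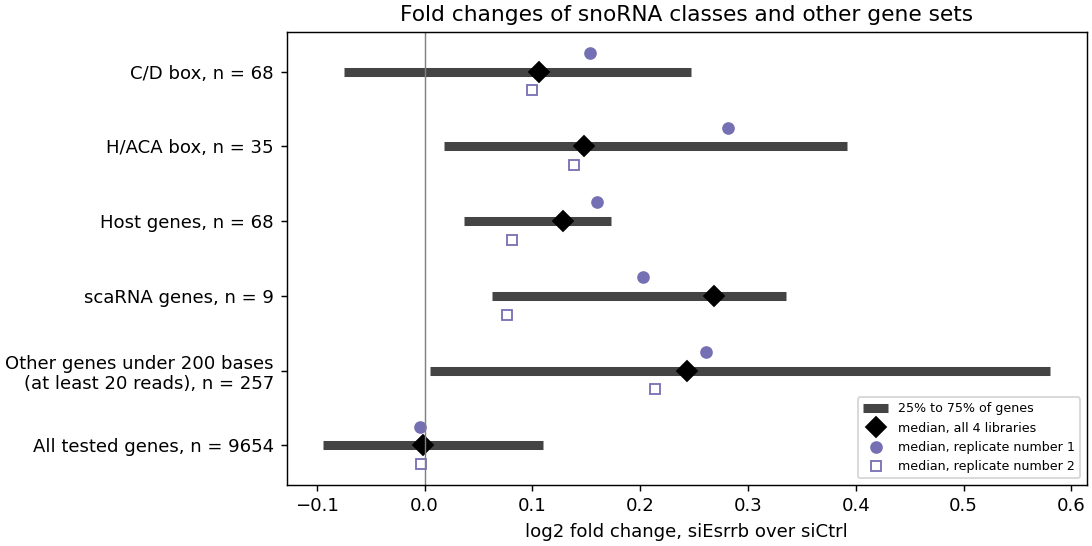
Median log2 fold change of siEsrrb over siCtrl (diamonds), the range from 25% to 75% of genes (bars) and the medians within replicate numbers 1 (circles) and 2 (open squares) for the snoRNA classes and other gene sets. C/D (0.11) and H/ACA (0.15) lie near their host genes (0.13), while all tested genes centre on 0. Both lie below other genes under 200 bases with at least 20 reads (0.24), which are mostly microRNA genes. With that minimum C/D is at 0.12 and H/ACA at 0.18.

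The replicate error was wide for these genes. The median SE of the log2 fold change was 0.24 for C/D genes and 0.20 for H/ACA genes, against 0.10 over all tested genes. The median difference between the 2 libraries of a group, in log2 units, was 0.31 in siEsrrb and 0.30 in siCtrl over the 103 members, larger than the median size of the fold change between groups, 0.18. Counting error alone gives a median SE of 0.20 for C/D genes and 0.14 for H/ACA genes, computed from the reads. The sign of the fold change was the same in both replicate numbers for 66 of 103 members, 64.1%, against 77.4% of all tested genes. Across the 103 genes the 2 replicate numbers' fold changes had a Pearson r of -0.18 and a Spearman rho of -0.03, against 0.52 and 0.68 across all 9654 tested genes. These are descriptions across genes that share libraries and differ in depth.

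**Figure D3:**
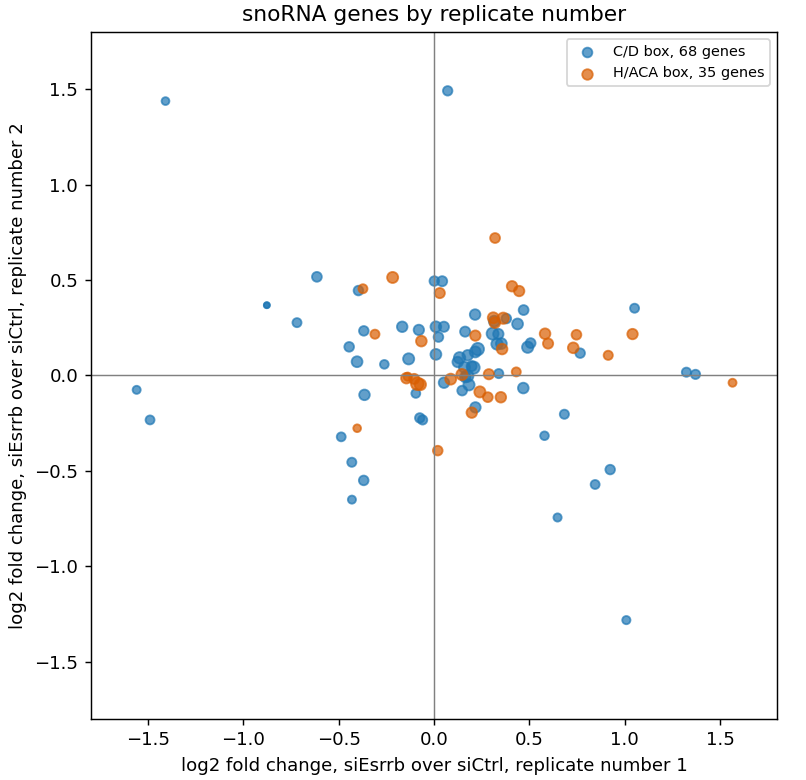
log2 fold change of siEsrrb over siCtrl in replicate number 1 (x axis) and replicate number 2 (y axis) for the 68 C/D (blue) and 35 H/ACA (orange) snoRNA genes, with larger points for more reads. The points lie mostly right of and above 0 but form no diagonal, with a Pearson r of -0.18, and the far points are mostly small ones.

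Among the members with at least 20 reads per library on average, those whose groups did not overlap were ranked by unadjusted p, and the first 6 were named in each direction. Snora31 (NR_028481) led the higher ones, with 29.5 and 30.4 scaled RPKM in siEsrrb, against 21.5 and 22.2 in siCtrl. The libraries of each group lay close together and the groups were apart, which the ranking selects for. The log2 fold change was 0.44 (SE 0.12, limma unadjusted p 0.0201, limma adjusted p 0.357). Snora31 lies in Tpt1, which encodes the translationally controlled tumour protein. Snora62 (NR_002902), in the ribosomal protein gene Rpsa, had 12.9 and 15.2 in siEsrrb, against 10.3 and 9.03 in siCtrl (log2 fold change 0.52, SE 0.14, limma adjusted p 0.360). Its counting error alone was 0.21 on the log2 scale.

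Snora17 and Snora43 share the noncoding host Snhg7. Snora17 had 30.2 and 24.2 scaled RPKM in siEsrrb, against 14.4 and 20.7 in siCtrl (log2 fold change 0.63, SE 0.24), and was 1.04 higher in replicate 1 but 0.22 in replicate 2. Snora43 had 21.0 and 17.2 in siEsrrb, against 13.7 and 15.3 in siCtrl (0.38, SE 0.16). Both lay higher in each siEsrrb library than in either control, as did Snhg7 itself. Snord49a was the only C/D gene among the 6, with 97.3 and 89.2 in siEsrrb and 71.7 and 73.9 in siCtrl (0.35, SE 0.14). Snora33, in Rps12, had 40.3 and 33.9 in siEsrrb and 30.2 and 24.3 in siCtrl (0.44, SE 0.18). The limma adjusted p of these 4 genes lay between 0.455 and 0.490.

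Of the 6 named lower members, 5 were C/D genes, and 4 of these had few reads. Snord87 (NR_004410) had 9.20 and 6.83 scaled RPKM in siEsrrb, against 12.6 and 9.55 in siCtrl, from 30.2 reads per library on average (log2 fold change -0.44, SE 0.22, limma adjusted p 0.538). Snord67 (NR_028553), whose human counterpart guides methylation of a spliceosomal RNA, had 1.99 and 5.47 in siEsrrb and 6.48 and 6.52 in siCtrl. The replicate numbers gave log2 fold changes of -1.49 and -0.23 (fitted -0.86, SE 0.45), so that 1 library set most of it. Snord91a had 8.92 and 7.15 in siEsrrb and 12.7 and 9.06 in siCtrl (-0.40, SE 0.22). Snord104 and Snord72 were lower by less, with log2 fold changes of -0.23 (SE 0.15) and -0.15 (SE 0.11). The sixth was Snora61, described above.

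Several members with few reads had large fold changes that rested on 1 library or turned between the replicate numbers. Snord64 had 2.12 and 5.66 scaled RPKM in siEsrrb and 6.44 and 1.77 in siCtrl, so the sign turned between the replicate numbers, with -1.41 for number 1 and 1.44 for number 2. Snord11 had 3.09 and 2.43 in siEsrrb and 10.1 and 2.59 in siCtrl (fitted -0.82, SE 0.63). In the same host, Nop58, Snord70 had 10.1 and 31.2 in siEsrrb and 9.59 and 10.8 in siCtrl (fitted 0.78, SE 0.56). One library stood apart in each of Snord11 and Snord70, a control in one and an siEsrrb library in the other. Snord61, with 10.5 reads per library on average, was lower without overlap, at 3.92 and 2.47 in siEsrrb and 5.46 and 4.17 in siCtrl.

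Just inside the level threshold lay Snord116l1 and Snord116l2, of the imprinted Snord116 repeats that are known from neurons. They had identical values of 1 and 2 reads in siEsrrb and 3 and 1 reads in siCtrl, so their reads cannot be told apart and the pair carries 1 measurement. Snora47 came next, with 1 and 11 reads in siEsrrb and 2 and 16 in siCtrl, a mean of 1.07 RPKM. Outside lay Snord123, with 0 and 3 reads in siEsrrb and 0 and 2 in siCtrl, a mean of 0.221 RPKM, and Snora35, which was at 0 in every library.

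Host genes were found for 97 members, all 35 H/ACA genes and 62 C/D genes, in 68 hosts. A host was a gene with a row in the files whose annotated span holds the snoRNA. Of the hosts, 22 encode ribosomal proteins and hold 33 members, 12 are noncoding and hold 20, and 34 are other coding genes and hold 44. The host's level per length covers its introns. After the members' own reads and bases were taken out of the host, assuming that its reads include them, the median ratio of snoRNA to host level was 1.98 for C/D and 1.78 for H/ACA genes. The C/D ratio was 2.05 and 2.02 in siEsrrb and 2.08 and 1.95 in siCtrl. For H/ACA it was 2.04 and 1.75 in siEsrrb and 1.82 and 1.75 in siCtrl. The groups overlapped in both classes. Of the 97 members, 46 stood at more than 2 times the host and 14 below it, and the ratio did not follow length across genes (Spearman rho 0.02, a description).

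The ratio was 18.8 for Snora74a over Snhg4 and 18.8 for Snord34 over Rpl13a, and 0.275 for Snora69 over the ribosomal protein gene Rpl39. Members take much of the reads on some hosts. Those on Snhg4 came to 43.6% of the host's reads, those on Snhg12 to 39.7% and those on Rpl13a to 36.7%, which bears on the hosts' own fold changes.

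Hosts as a group leaned the same way as the snoRNAs within them. The median host log2 fold change was 0.13, with 58 of 68 above 0, 28 higher without overlap and 5 lower, against 21.6% and 22.0% of all genes. All 22 ribosomal protein hosts were above 0, with 14 higher without overlap and none lower. None of the 68 passed a limma adjusted p of 0.05, and only Snhg7 had an unadjusted p under 0.05. The snoRNA minus host log2 fold change had a median of 0.03 over 97 pairs, 0.01 for C/D genes and 0.06 for H/ACA genes. By replicate number it was 0.05 and 0.02. Across the 97 pairs, the snoRNA and host fold changes had a Pearson r of 0.36 and a Spearman rho of 0.40, given as a description since the pairs share libraries and, within a host, reads. Of the 22 members that were higher without overlap, 16 lay in hosts that were too, where 28 of the 68 hosts (41.2%) were. Of the 6 lower members with a host, 0 lay in a host that was lower without overlap. The host fold changes in this paragraph were taken with the members' reads left in, so host and member are not separate measurements. Snhg4, for example, was at 0.04 with these reads and at 0.12 without them.

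**Figure D4:**
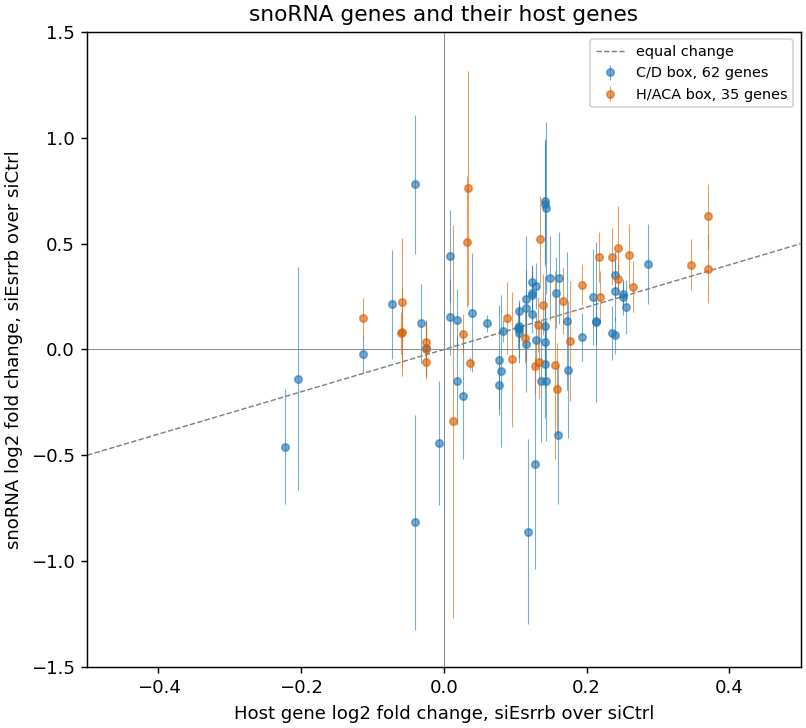
log2 fold change of siEsrrb over siCtrl of each snoRNA gene (y axis, with its SE from counting error) against that of its host gene (x axis), for 62 C/D (blue) and 35 H/ACA (orange) genes. Hosts ran from -0.22 to 0.37 and snoRNAs from -0.86 to 0.78, and the points scatter around the dashed line of equal change.

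In 4 of the 12 noncoding hosts, the host and each of its members were higher without overlap, with the members' reads left in the host. Counted alone, 6 of the 12 hosts (50.0%) were higher, where 21.6% of all tested genes were. Member reads came to 33.3% of the reads of Snhg8, 27.9% for Dancr, 21.5% for Snhg1 and 13.4% for Snhg7. Host and member are therefore not separate measurements. Snhg7 had 14.8 and 14.2 scaled RPKM in siEsrrb, against 10.8 and 11.4 in siCtrl (log2 fold change 0.37, SE 0.11, limma adjusted p 0.391), beside 0.63 and 0.38 for its members Snora17 and Snora43. Snhg8 had 18.9 and 15.8 in siEsrrb, against 13.2 and 13.8 in siCtrl (0.35, SE 0.14), and its member Snora24 had 42.7 and 31.1 against 28.3 and 26.7 (0.40, SE 0.20). Dancr had 14.3 and 12.3 against 11.6 and 10.4, and its member Snora26 had 39.4 and 36.7 against 31.5 and 30.2. Snhg1 was the fourth by a small margin, with 64.9 and 64.9 in siEsrrb and 63.4 and 61.0 in siCtrl (0.06, SE 0.13). Its member Snord22 was at 0.12. With the reads of Snord22 taken out, Snhg1 had 52.2 and 53.6 in siEsrrb and 52.8 and 49.9 in siCtrl, so its groups overlapped. Snhg7, Snhg8 and Dancr stayed higher without overlap when their members' reads were taken out. The 4 hosts hold 5 members. Snhg6 had 10.2 and 9.02 in siEsrrb and 9.75 and 9.55 in siCtrl (-0.01, SE 0.12), while Snord87 within it was the lowest by p of the members above.

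Start regions of 5 hosts are shown, all picked with a run of C or T letters as marked below, so they do not stand for all hosts. Of the 5, 4 have members that were higher without overlap, and Snhg12 has members close to no change. Other hosts with members higher without overlap, among them Dancr, Snhg1, Tpt1, Rpsa and Rps12, are not shown. Each start shown is 60 bases of RefSeq sequence on GRCm38.p6. It covers 30 before and 30 from the annotated start, given on the gene's strand. Capitals mark the longest run of at least 6 C or T letters that reaches into the 5 bases before or the first 10 bases from the start. Such runs are a known feature of genes for ribosomal proteins and snoRNA hosts.
Snhg7, chr2:26640215-26640274, minus strand: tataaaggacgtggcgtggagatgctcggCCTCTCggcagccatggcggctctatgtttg
Snhg8, chr3:123508307-123508366, minus strand: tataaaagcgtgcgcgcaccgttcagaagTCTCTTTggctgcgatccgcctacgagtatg
2410006H16Rik, chr11:62602847-62602906, plus strand: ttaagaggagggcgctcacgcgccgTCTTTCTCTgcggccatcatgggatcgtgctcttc
Rack1, chr11:48800330-48800389, plus strand: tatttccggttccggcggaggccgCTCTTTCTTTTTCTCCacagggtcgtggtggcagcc
Snhg12, chr4:132308648-132308707, plus strand: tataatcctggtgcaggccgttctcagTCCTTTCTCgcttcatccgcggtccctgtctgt
A run of this kind was in 26 of 60 promoter entries of the hosts, 43.3%, from 56 of the 68 hosts, and in 24.4% of all 32851 entries. Snhg7, higher in both siEsrrb libraries, and Snhg12, whose groups overlapped, both had one, as every start shown does by selection.

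Esrrb binds the half-site AAGGTCA, most strongly as TCAAGGTCA. On either strand of the 300 bases from 250 before to 50 after the start, AAGGTCA was in 3 of the 60 host entries, 5.0%, and in 4.72% of all entries. The longer form TCAAGGTCA, whose matches are also counted under AAGGTCA, was in 0 host entries and 0.423% of all. The hosts with a match were Rabggtb, Rps3 and Sf3b3. The Rps3 match is shown because Rps3 holds Snord15a and Snord15b. Capitals mark the reverse complement of AAGGTCA.
Rps3, chr7:99483884-99483943, minus strand: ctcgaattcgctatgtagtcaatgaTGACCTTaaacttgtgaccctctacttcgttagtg
Rps3 had 21.4 and 21.4 scaled RPKM in siEsrrb, against 17.2 and 18.6 in siCtrl (log2 fold change 0.25, SE 0.12), and Snord15a had 63.8 and 69.5 against 50.6 and 61.9. A match is a description of the letters and not evidence of binding.

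Members of 1 host share a transcript, and 22 hosts held at least 2. Some snoRNAs of Rpl13a have been linked, in mouse and hamster cells, to the response to lipid stress. Rpl13a holds Snord32a, Snord33, Snord34 and Snord35a. Their levels differed by 18.7-fold, with Snord34 at 853 and 591 in siEsrrb and 727 and 536 in siCtrl and Snord33 at 38.6 and 35.5 in siEsrrb and 40.8 and 30.0 in siCtrl. Their log2 fold changes lay together, between 0.08 and 0.18, beside 0.11 for Rpl13a. Snhg12 holds 3 H/ACA genes and 1 C/D gene, Snora61, Snora16a, Snora44 and Snord99, at log2 fold changes between -0.06 and 0.03. Snhg12 itself was at 26.2 and 22.6 in siEsrrb and 26.7 and 23.0 in siCtrl.

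Snhg16 holds Snord1a, Snord1b and Snord1c at like levels, yet their log2 fold changes spread from -0.07 to 0.69. Snord1a had 16.6 and 9.88 scaled RPKM in siEsrrb and 6.13 and 9.84 in siCtrl, so the difference came from replicate 1 alone, from 35.2 reads per library on average. In 2410006H16Rik, a noncoding host of Snord49a, Snord49b and Snord65, the members were at 0.35, 0.07 and 0.28 and the host at 0.24 (SE 0.15). Rpl23a holds Snord42a, Snord42b and Snord4a, between 0.02 and 0.24 beside 0.11 for the host. The members of 5 of the 22 hosts were more than 0.3 apart on the log2 scale, and Nop58 with Snord11 and Snord70 had the widest spread, 1.60.

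**Figure D5:**
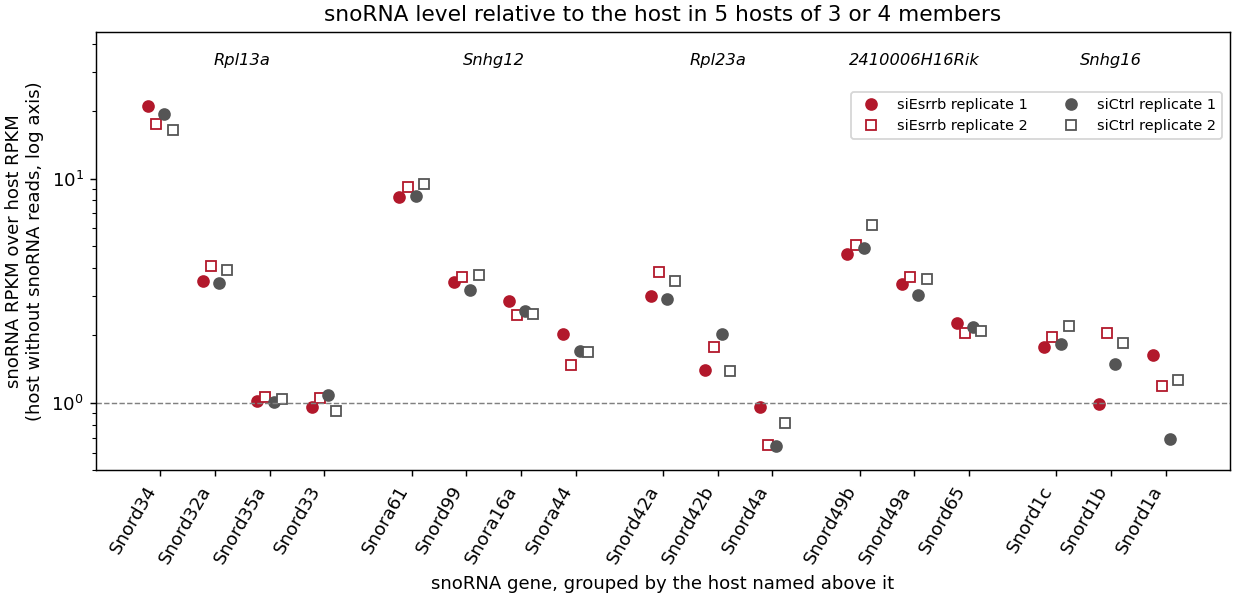
Ratio of snoRNA to host RPKM (log axis), with the snoRNA reads taken out of the host, for the members of the 5 hosts with 3 or 4 members in each library, siEsrrb in red and siCtrl in grey. Within Rpl13a the ratio ran from about the host's own level for Snord33 and Snord35a to 18.8 for Snord34, the mean over libraries.

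Both box classes were present in 4 hosts, where they share a transcript. In Rps12 the H/ACA gene Snora33 was at 0.44 and the C/D gene Snord100 at 0.08. In Ncl, Snora75 was at 0.31 and Snord82 at 0.06, and in Eif4a2 Snora81 was at 0.15 and Snord2 at -0.02. Snord100 had 57.9 and 53.9 scaled RPKM in siEsrrb and 51.7 and 54.2 in siCtrl, and Snord82 had 70.8 and 78.0 in siEsrrb and 70.4 and 72.2 in siCtrl. The H/ACA gene had the higher fold change in these 3 hosts, but the SE of each value was 0.14 to 0.23 and the differences between genes were not tested. In Snhg12, Snord99 at 0.01 lay among its H/ACA genes.

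The proteins that assemble with the snoRNAs were compared in nascent RNA too. Of the 4 C/D core genes, none passed the adjusted test and each overlapped between the groups. Fbl, the methyltransferase fibrillarin, was at 3.47 and 2.87 scaled RPKM in siEsrrb and 3.13 and 2.79 in siCtrl (log2 fold change 0.08, SE 0.12). Nop56, Nop58 and Snu13 were at 0.12, -0.04 and 0.01. Of the 4 H/ACA core genes, none passed either, and 3 were higher without overlap, where 21.6% of all tested genes were. Dkc1, the pseudouridine synthase dyskerin, was at 5.80 and 5.85 in siEsrrb and 5.15 and 5.55 in siCtrl (0.11, SE 0.09). Nhp2 was at 7.85 and 6.67 in siEsrrb and 6.29 and 5.79 in siCtrl (0.24, SE 0.12), Nop10 at 0.15 (SE 0.09) and Gar1, which overlapped, at 0.21 (SE 0.17).

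Of 11 assembly factors, none passed, with 1 higher and 3 lower without overlap, where 21.6% of all tested genes were higher and 22.0% lower. Pih1d1, a subunit of the R2TP chaperone complex, was at 0.20 (SE 0.09). Shq1, which holds dyskerin before assembly, was at 0.637 and 0.686 scaled RPKM in siEsrrb, against 0.797 and 0.801 in siCtrl (-0.16, SE 0.07). Nufip1, a platform for C/D assembly, was at -0.09 and Ruvbl2, an ATPase of R2TP, at -0.13. Of the 5 trimming and decay genes, 1 was higher and 1 lower, by no more than 0.03. Of the noncoding host list (Gas5 and Snhg1 to Snhg20), 14 of 21 were tested, 0 passed, 3 were higher without overlap and 1, Snhg20, was lower (-0.17, SE 0.09).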

How the data were processed

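Chromatin-associated nascent RNA of E14 cells was sequenced in 2 siEsrrb and 2 siCtrl libraries. The authors deposited 1 RPKM value per RefSeq row and library. The submitters' processing notes name CASAVA 1.4, TopHat2, Bowtie 1.1.1, Bowtie2 and the build mm9; the counting program is not given in the sources used here, nor is its use of strand, so a snoRNA, its host and antisense partners may share reads. Whole reads were recovered from the RPKM for all 31771 rows above 0, within 0.01 of a read, which gave the totals and the lengths. Of 34929 rows, 34631 mapped to a symbol in RefSeq's GRCm38.p6 gene table, and the row with the most reads stood for each of 24260 symbols. RPKM was multiplied by a median-of-ratios factor per library (0.925 to 1.09), and log2(RPKM + 0.5) was tested with limma 3.58.1 in R 4.3.3 with a trend and without a block for replicate number, for 9654 genes whose mean reached 0.5 RPKM. Fold changes are siEsrrb over siCtrl on that scale, which understates changes of low genes; p-values are two-sided with Benjamini-Hochberg adjustment. On simulated data at 2 against 2 libraries, the step was checked for recovery of known changes larger than any fitted for a member. Recovery of changes of the members' size was not checked. Voom fits of the recovered reads were an alternative.

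A host was the protein-coding or lncRNA gene with a row whose GRCm38.p6 span holds the snoRNA, or the one with the most reads where several did. The gene table gives no strand, so the host's strand was not checked. Named genes were the 10 highest of each class, the 6 per direction with the smallest p among those without overlap and with at least 20 reads, members of noncoding hosts and of hosts with 3 or more, their hosts, and fixed lists of snoRNA protein genes; Snord11, Snord61, Snord64, Snord70, Snord100 and Snord82 were picked by their values. The members and lists were chosen with earlier results of these data known. The ratio to a host is, for some members, not reported here.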

Additional observations from a re-analysis of the deposited data

How the results depend on the processing

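Depth limits these values: 12 members had fewer than 20 reads per library on average, and the median SE of a member's log2 fold change was 0.22. Of the summary results, 121 comparisons with an alternative kept their value and 25 did not, and no median changed sign. No snoRNA passed the adjusted test in any fit but 1. The replicate numbers are a block that no label states, since the title gives a number only for the later pair. Same-numbered libraries deviated together across all tested genes (correlation 0.38, and 0.16 over the members). With the replicate block, limma called 0 genes, while voom on the recovered reads with the replicate block called 2568 of 9654 genes (26.6%) and 7 of 103 snoRNA genes, Snord70, Snord15b, Snora78, Snora33, Snora62, Snord34 and Snora31, all higher in siEsrrb. Voom without the block called 0 genes. Without library scaling, the C/D median was 0.062 and 4 H/ACA genes were lower without overlap.

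Leaving out 1 library in turn gave 0 to 11 genes past the adjusted test (11 without siEsrrb replicate 2, 2 without siCtrl replicate 1), and C/D medians of 0.022 to 0.13 and H/ACA medians of 0.12 to 0.34. The C/D minus H/ACA difference ran from -0.21 to -0.062. With 1 library fewer, groups overlap less by construction, so 21 to 35 C/D genes were higher and 10 to 19 lower, and 15 to 21 H/ACA genes were higher and 3 to 9 lower. The lone library of a group is then assumed to vary like the others.

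Among the named genes, 26 fold changes passed the adjusted test only under voom with the replicate block, and some signs changed. Without scaling the log2 fold change was -0.0068 for Snhg4, -0.010 for Snora16a, -0.043 for Snora44, -0.0096 for Snord1c, -0.019 for Snord42b, -0.011 for Snord64, -0.037 for Snord99 and -0.027 for Snu13. A pseudocount of 2 gave -0.0073 for Snord64. Voom gave -0.080 for Snora44, 0.073 for Snord1b, -0.016 for Snord1c, 0.010 for Snord2, -0.011 for Snord99 and -0.017 for Snu13. Voom with the replicate block gave -0.070 for Snora44, 0.12 for Snord1b, -0.022 for Snord1c, 0.020 for Snord2, -0.013 for Snord99 and -0.028 for Snu13. Leaving out 1 library turned the sign of 33 named genes. Their ranges were -0.035 to 0.20 for Fbl, -0.0059 to 0.25 for Nop56, -0.094 to 0.014 for Nop58, -0.051 to 0.26 for Rpl13a, -0.13 to 0.079 for Snhg12, -0.093 to 0.079 for Snhg6 and -0.12 to 0.14 for Snu13. For H/ACA genes they were -0.16 to 0.23 for Snora16a, -0.063 to 0.30 for Snora19, -0.32 to 0.32 for Snora44, -0.0040 to 0.15 for Snora65, -0.15 to 0.018 for Snora74a, -0.034 to 0.70 for Snora78 and -0.11 to 0.40 for Snora81. For C/D genes they were -1.71 to 0.070 for Snord11, -0.077 to 0.42 for Snord110, -0.077 to 0.60 for Snord15b, -0.12 to 0.29 for Snord17, -0.43 to 0.30 for Snord1b, -0.039 to 0.11 for Snord1c, -0.18 to 0.14 for Snord2, -0.14 to 0.30 for Snord33, -0.081 to 0.45 for Snord34 and -0.0023 to 0.20 for Snord35a. They were also -0.30 to 0.35 for Snord42b, -0.0058 to 0.14 for Snord49b, -0.096 to 0.58 for Snord4a, -0.79 to 0.82 for Snord64, -0.82 to 0.54 for Snord7, -0.0092 to 1.57 for Snord70, -0.0089 to 0.13 for Snord82, -0.34 to 0.15 for Snord93 and -0.053 to 0.067 for Snord99. The cause of these changes was not tested.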
